A study of Homo sapiens with 4 samples.

Results

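The BCL2 family of cell death regulators was examined in TPC1, a line of human papillary thyroid cancer cells with a CCDC6-RET fusion. Members were taken by gene symbol and numbered 10 of the 20372 genes in the count table. They were the anti-apoptotic BCL2, BCL2L1 and MCL1, the BH3-only BCL2L11, BMF, BBC3, PMAIP1 and BID, and the effectors BAX and BAK1. All 10 passed the filter on low counts, as did 12549 genes in all. RNA-seq had been performed after treatment with BGJ398, a small-molecule inhibitor of the FGF receptor kinases, with 2 libraries taken at 6 h and 2 at 24 h. All 4 libraries came from the same line, grown in DMEM with fetal bovine serum, and all had received the inhibitor. The unit of the dose differs between the labels and the study's methods, micromolar in the former and nanomolar in the latter, so the dose is left out here. Libraries without the inhibitor were not analysed here, and every comparison is of a longer with a shorter treatment. A bulk library of 1 line also cannot tell fewer cells with a transcript from less of it per cell.

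The family decides whether the outer mitochondrial membrane is opened during apoptosis. BAX and BAK1 form the pores, the anti-apoptotic proteins hold them and the BH3-only proteins in check, and the BH3-only proteins carry stress signals to both. In many cancer cells kinase signaling through ERK and AKT keeps BH3-only proteins low or inactive, which is why the family is often read out after kinase inhibition. In TPC1 cells, however, the study found that BGJ398 alone lowered phosphorylated FRS2 while ERK and AKT signaling were not significantly inhibited. Transcript levels are only a part of the control of the family, because MCL1 and PMAIP1 proteins are short-lived and BID and the effectors are activated as proteins.

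The libraries held 24958447 to 26325512 counts. Genes of the mitochondrial genome took 1.68% and 2.98% of counts at 24 h and 1.09% and 1.40% at 6 h, and genes of cytosolic ribosomal proteins took 3.85% and 4.90% against 3.08% and 3.33%. Replicate 2 at 24 h stood apart with the highest share of both. The part of these shares in the results was not tested. Among thyroid markers PAX8 was at 957 to 1069 CPM (CPM, the count relative to the library total on a common scale, with the TMM factors of edgeR), whereas NKX2-1 and TSHR had 0 counts in all 4 libraries and SLC5A5 was near 0. Markers of fibroblasts summed to 12.8 to 16.1 CPM and those of endothelium to 3.75 to 8.36 CPM. Leukocyte markers summed to 167 to 238 CPM, of which CD68 alone made up 166 to 237 CPM, with CD3E at 0 and PTPRC, which all leukocytes express, at 0.0816 to 0.238 CPM. Epithelial markers summed to 141 to 168 CPM, with EPCAM and CDH1 near 0.

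All members share the BH3 motif, a short helix that takes part in the binding between these proteins. Its core, a leucine, any 3 residues, a glycine or alanine and an aspartate, was located in the coding sequence of each member's canonical GENCODE v44 transcript and was found exactly once in 10 of 10. The core by itself is not rare, since 25.3% of 18896 genes with a coding sequence held it at least once and 19.1% exactly once. Stretches of 42 coding bases are shown 5′ to 3′ because they are what joins the roles in one family. The 6 codons of the core are in capitals, with 4 codons on each side.
BCL2: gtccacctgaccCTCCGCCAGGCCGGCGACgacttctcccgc
BCL2L1: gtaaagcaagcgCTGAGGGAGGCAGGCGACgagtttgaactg
MCL1: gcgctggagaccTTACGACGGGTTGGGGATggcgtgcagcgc
BCL2L11: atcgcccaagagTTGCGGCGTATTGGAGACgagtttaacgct
BMF: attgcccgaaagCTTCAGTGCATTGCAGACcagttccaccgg
BBC3: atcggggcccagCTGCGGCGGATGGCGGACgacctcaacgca
PMAIP1: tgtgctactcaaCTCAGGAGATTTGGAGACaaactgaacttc
BID: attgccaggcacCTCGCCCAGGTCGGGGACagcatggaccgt
BAX: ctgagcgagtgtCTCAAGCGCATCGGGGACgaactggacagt
BAK1: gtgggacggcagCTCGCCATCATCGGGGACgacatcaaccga

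Across these stretches the base composition varied widely, from a GC content of 42.9% in PMAIP1 to 73.8% in BCL2. In PMAIP1 the stretch spans coding bases 73 to 114 of only 162, whereas in MCL1 it spans bases 625 to 666 of 1050. Whole transcripts differed as well, though not in the same order. The canonical PMAIP1 transcript of 1899 bases had a GC content of 36.7% and that of BBC3, with 1846 bases, one of 69.7%, whereas that of BCL2 had 44.4%. The median over tested genes was 48.1%.

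Per kilobase of canonical transcript MCL1 and BAX were the most abundant members, and BCL2 and BMF the least. Levels were compared between genes as CPM per kilobase of the canonical transcript, over all 4 libraries. MCL1 led with a mean level of 200 CPM per kb (lowest 182, highest 216), followed by BAX at 112 (104 to 118). PMAIP1 was at 44.2 (39.1 to 50.7), BCL2L1 at 32.8 (31.8 to 34.0), BID at 23.5 (22.4 to 24.6) and BAK1 at 20.9 (19.4 to 21.7) CPM per kb. Each of these ranges lay apart from its neighbours in the order on this scale. The place of BAX rests on a canonical transcript of 795 bases. In CPM its range of 82.9 to 94.1 overlapped those of PMAIP1 (74.2 to 96.3) and BCL2L1 (81.7 to 87.6). Far lower on the same scale were BBC3 at 6.07 (4.79 to 7.97) and BCL2L11 at 3.15 (2.55 to 3.46) CPM per kb. BMF at 0.681 (0.641 to 0.782) and BCL2 at 0.529 (0.432 to 0.652) overlapped, so their order was not resolved. Each role thus held members that differed in level by more than the libraries did.

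**Figure D1:**
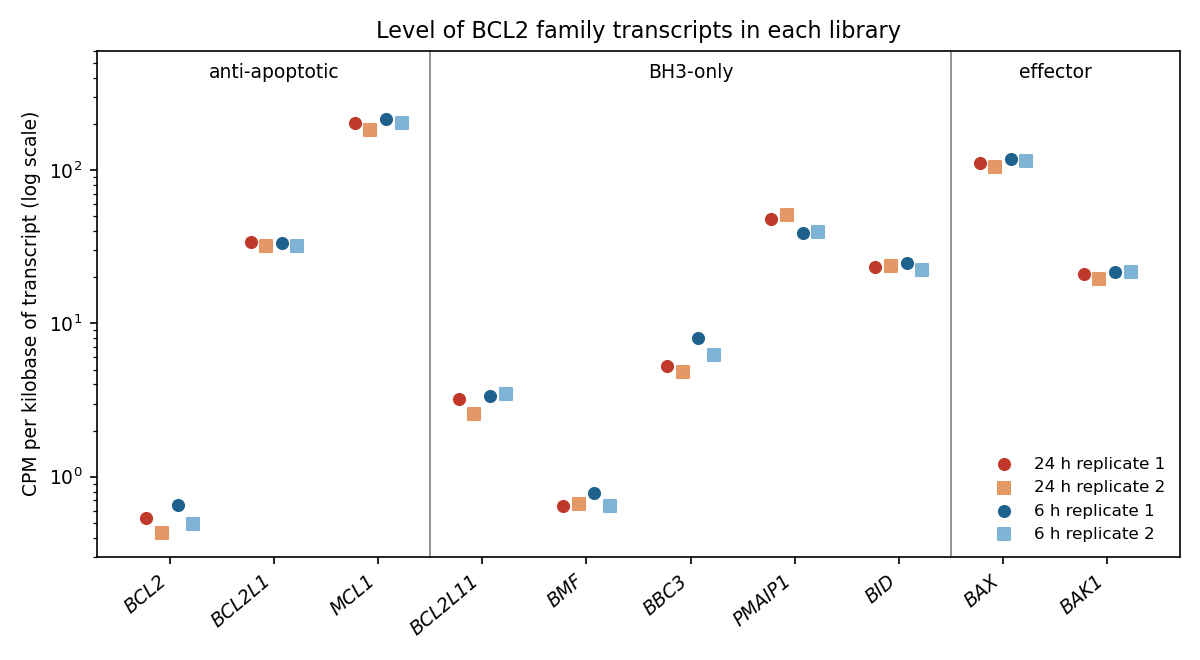
Level of each of the 10 members in each library, as CPM per kilobase of the canonical transcript on a log axis, ordered by role, with 24 h and 6 h libraries in different colors. MCL1 sat at 182 to 216 CPM per kb and BCL2 at 0.432 to 0.652, and within each gene the 4 libraries lay close together.

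None of the 10 members was called between 24 h and 6 h in the fits of all 4 libraries without a covariate. The edgeR quasi-likelihood test called 0 of 12549 genes at an adjusted p under 0.05 (background 0%), and DESeq2 called 610 of the 7410 genes to which it gave an adjusted p (8.23%), no member among them. DESeq2 gave an adjusted p to 6 of the 10 and none to BCL2, BCL2L11, BMF and BBC3. At an unadjusted edgeR p under 0.05 stood 2 members, BBC3 and PMAIP1, against 24.4% of all tested genes. The libraries of the 2 times did not overlap in 5 of 10 members, against 62.8% of all genes. Of these members 1 was higher at 24 h (31.3% of all genes) and 4 were lower (31.5%). The share of lower members, 4 of 10, was near its background and gives no result about the members. None of the other shares was above its background.

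**Figure D2:**
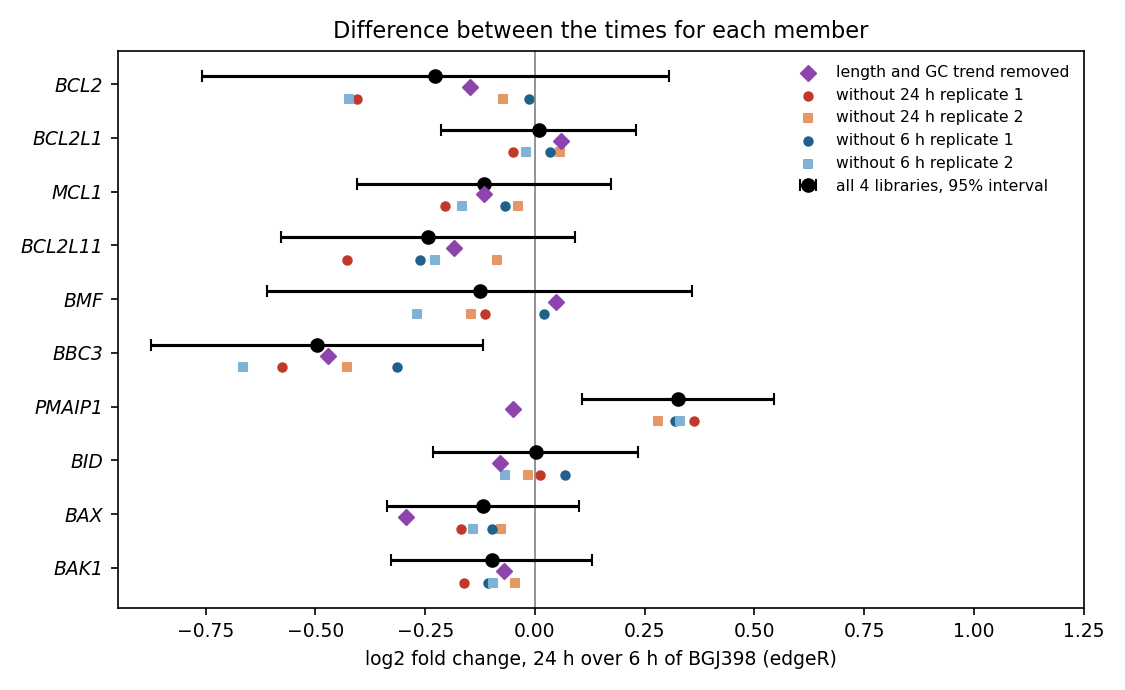
Log2 fold change of 24 h over 6 h for each member by edgeR with its 95% confidence interval, with diamonds for the value after a trend on transcript length and GC content was removed and small points for the fits without 1 library. Only the intervals of BBC3 (-0.87 to -0.12) and PMAIP1 (0.11 to 0.54) left 0, and the diamond of PMAIP1 lay at -0.051, across 0 from its main value.

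The 3 anti-apoptotic members overlapped between the times. MCL1, a short-lived guard that binds BAK1 and several BH3-only proteins (ENSG00000143384, hg19 chromosome 1, 150547032 to 150552066), was at 802 and 718 CPM at 24 h and at 851 and 796 CPM at 6 h. The 24 h replicate 1 library lay above the lower of the 6 h libraries, so the times overlapped. The means were 760 ± 59.0 and 824 ± 39.3 CPM (SD, n = 2), and the log2 fold change was -0.12 ± 0.12 (SE; edgeR adjusted p = 0.564). It ran from -0.21 to -0.039 in the fits without 1 library.

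BCL2L1, which encodes BCL-XL (ENSG00000171552, chromosome 20, 30252255 to 30311792), was at 87.6 and 81.7 CPM at 24 h and at 85.8 and 82.6 CPM at 6 h. The 24 h pair enclosed the 6 h pair. Its log2 fold change was 0.0081 ± 0.096, and the 95% interval of -0.21 to 0.23 bounds the difference that these libraries allow. Gene counts do not separate the long form from the pro-apoptotic short splice form of BCL2L1, or the corresponding forms of MCL1.

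BCL2, the founding member (ENSG00000171791, chromosome 18, 60790579 to 60987361), had 94 and 74 counts at 24 h and 110 and 91 at 6 h, or 3.73 and 2.97 CPM against 4.49 and 3.38 CPM. At this depth counting alone gave 95% Poisson intervals of 3.01 to 4.56 and 2.33 to 3.73 CPM at 24 h, and of 3.69 to 5.41 and 2.72 to 4.15 CPM at 6 h. Intervals of this kind cover counting error only. The log2 fold change was -0.23 ± 0.23 (95% interval -0.76 to 0.30, edgeR adjusted p = 0.537), so a difference was not detectable for BCL2. The fits without 1 library gave -0.42 to -0.013.

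The BH3-only members diverged, with BBC3 at the lower end and PMAIP1 at the upper end of the 10 members. BBC3 encodes PUMA, a target of FOXO3 that binds all anti-apoptotic proteins (ENSG00000105327, chromosome 19, 47724081 to 47736023). It was at 9.75 and 8.84 CPM at 24 h and at 14.7 and 11.5 CPM at 6 h. Both 24 h libraries were below both 6 h libraries, and the 6 h libraries differed more from each other than the 24 h pair did. The means were 9.29 ± 0.646 and 13.1 ± 2.25 CPM (SD, n = 2), 29.2% lower at 24 h. The log2 fold change was -0.50 ± 0.16 (SE), with an unadjusted edgeR p of 0.0165 and an adjusted p of 0.173, and DESeq2 gave -0.50 ± 0.22. Only 2.36% of tested genes had a lower fold change. The value was -0.47 with the length and GC trend removed (adjusted p = 0.277). BBC3 was called by edgeR without 24 h replicate 1 (-0.58, adjusted p = 0.0466), where 24.5% of all genes were called, and without 6 h replicate 2 (-0.67, adjusted p = 0.0372), where 6.95% were. It was not called without 24 h replicate 2 (-0.43) or without 6 h replicate 1 (-0.31).

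PMAIP1 encodes NOXA, which binds MCL1 and hastens its degradation (ENSG00000141682, chromosome 18, 57567180 to 57571538). It was at 90.5 and 96.3 CPM at 24 h and at 74.2 and 74.8 CPM at 6 h. Both 24 h libraries were above both 6 h libraries, in PMAIP1 alone among the 10 members. The means were 93.4 ± 4.07 and 74.5 ± 0.476 CPM (SD, n = 2), 25.4% higher at 24 h. The log2 fold change was 0.33 ± 0.094 (SE), with an unadjusted edgeR p of 0.00904, an adjusted p of 0.173 by edgeR and an adjusted p of 0.0913 by DESeq2. Of all tested genes 82.7% had a lower fold change. Over all tested genes the fold change fell with transcript length (Spearman rho = -0.32 across genes) and with GC content (rho = -0.35), and PMAIP1 was short and poor in GC. With that trend removed its log2 fold change was -0.051 (edgeR adjusted p = 0.805), so its direction turned. Whether length and GC content account for the difference in PMAIP1 was not tested. Without 24 h replicate 1 edgeR called it (0.36, adjusted p = 0.0318), again beside 24.5% of all genes, and the other fits without 1 library gave 0.28 to 0.33 without a call.

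BCL2L11, which encodes BIM, the BH3-only protein that ERK phosphorylation marks for degradation and that FOXO factors induce (ENSG00000153094, chromosome 2, 111876955 to 111926024), was at 16.4 and 13.0 CPM at 24 h and at 17.2 and 17.6 CPM at 6 h. Both 24 h libraries were below both 6 h libraries, replicate 1 by little. The log2 fold change was -0.24 ± 0.14 (95% interval -0.58 to 0.092, edgeR adjusted p = 0.312), and it ran from -0.43 to -0.086 in the fits without 1 library.

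BMF, a BH3-only protein that is tethered to the cytoskeleton through dynein light chain 2 (ENSG00000104081, chromosome 15, 40380091 to 40401093), was at 3.01 and 3.09 CPM at 24 h and at 3.67 and 3.01 CPM at 6 h, from 76 to 90 counts per library. These values overlapped, and the log2 fold change was -0.13 ± 0.21 (95% interval -0.61 to 0.36), or 0.047 with the length and GC trend removed.

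BID, which caspase 8 cleaves to link death receptors to mitochondria (ENSG00000015475, chromosome 22, 18216906 to 18257536), was at 50.6 and 51.9 CPM at 24 h and at 53.6 and 48.8 CPM at 6 h. The 6 h pair enclosed the 24 h pair. Its log2 fold change of 0.0015 ± 0.10 (95% interval -0.23 to 0.24) was the smallest in size among the 10 members and changed sign between settings.

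Both effectors were slightly lower at 24 h without a call in the main edgeR fit or by DESeq2. BAX, the effector that moves from the cytosol to mitochondria (ENSG00000087088, chromosome 19, 49458072 to 49465055), was at 88.0 and 82.9 CPM at 24 h and at 94.1 and 91.4 CPM at 6 h. BAK1, which resides on the outer membrane (ENSG00000030110, chromosome 6, 33540329 to 33548019), was at 45.4 and 42.2 CPM against 46.7 and 47.1 CPM. In each gene both 24 h libraries were below both 6 h libraries. The log2 fold change was -0.12 ± 0.095 for BAX (95% interval -0.34 to 0.10, edgeR adjusted p = 0.437). For BAK1 it was -0.099 ± 0.099 (95% interval -0.33 to 0.13, edgeR adjusted p = 0.534). The value of BAX, whose canonical transcript of 795 bases has a GC content of 60.8%, was -0.29 with the length and GC trend removed (adjusted p = 0.279). Within a library there were 1.94 and 1.97 BAX counts per BAK1 count at 24 h and 2.01 and 1.94 at 6 h, so the balance of the effectors overlapped between the times.

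The median log2 fold change was -0.12 for the 3 anti-apoptotic members, -0.13 for the 5 BH3-only members and -0.11 for the 2 effectors, against 0.00019 over all genes tested. Of the 10 members 3 had a fold change above 0 and 7 below 0, with a median of -0.12. Without 1 library the medians ran from -0.21 to -0.013 for the anti-apoptotic members, from -0.23 to 0.021 for the BH3-only members and from -0.17 to -0.061 for the effectors. They give no account of the BH3-only members, which ran from -0.50 to 0.33.

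Sums over roles were then set against each other within each library, which does not depend on scaling between libraries. Such ratios still carry any trend on transcript length and GC content. With that trend removed PMAIP1 had a log2 fold change of -0.051, against 0.33 before. There were 5.24 and 4.64 anti-apoptotic counts per BH3-only count at 24 h and 5.76 and 5.66 at 6 h, a mean ratio that was 13.5% lower at 24 h. Both 24 h ratios were below both 6 h ratios, and their 95% counting intervals (5.07 to 5.42 and 4.49 to 4.79) lay below those at 6 h (5.57 to 5.96 and 5.48 to 5.85). These intervals cover counting error only, and those of the 24 h libraries did not overlap each other either. Per kilobase of transcript the ratio of anti-apoptotic to BH3-only counts was 2.97 and 2.59 at 24 h and 3.29 and 3.24 at 6 h. BH3-only counts per effector count were 1.28 and 1.38 at 24 h and 1.16 and 1.12 at 6 h, 16.4% higher. Anti-apoptotic counts per effector count, at 6.69 and 6.42 against 6.69 and 6.37, overlapped. With 2 libraries per time an exact permutation test cannot pass 0.05, so none was run on these ratios.

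**Figure D3:**
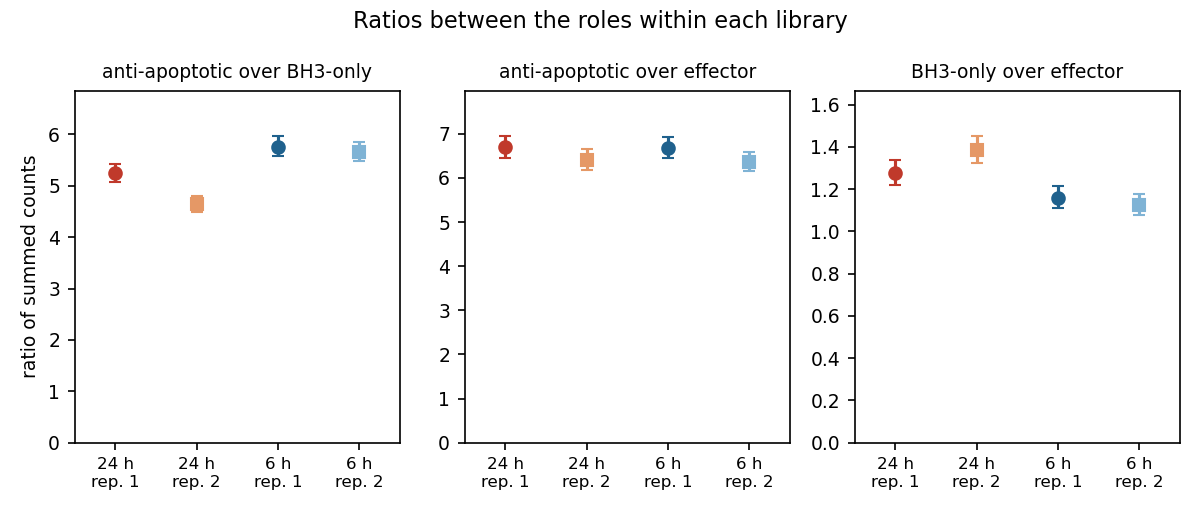
Ratio of summed counts between roles in each library, with 95% counting intervals and axes from 0. The 24 h libraries lay at 5.24 and 4.64 anti-apoptotic counts per BH3-only count and the 6 h libraries at 5.76 and 5.66, whereas the ratio to the effectors overlapped.

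Single genes carried these sums. MCL1 made up 89.5% to 90.4% of anti-apoptotic counts in all 4 libraries. PMAIP1 made up 53.2% and 55.6% of BH3-only counts at 24 h and 45.4% and 48.0% at 6 h, and BBC3 5.72% and 5.10% against 9.01% and 7.41%. Without PMAIP1 there were 11.2 and 10.5 anti-apoptotic counts per BH3-only count at 24 h and 10.6 and 10.9 at 6 h, so the times overlapped. The ratio of BH3-only to effector counts then overlapped as well, at 0.598 and 0.614 against 0.633 and 0.585. Without MCL1 the anti-apoptotic counts per BH3-only count were 0.536 and 0.489 at 24 h and 0.552 and 0.552 at 6 h, still with no overlap. Per effector count they were then 0.684 and 0.677 at 24 h and 0.641 and 0.621 at 6 h, 7.92% higher and also with no overlap. PMAIP1 and MCL1 were singled out after their shares had been seen. Between single members, there were 8.86 and 7.46 MCL1 counts per count of PMAIP1, its direct antagonist, at 24 h and 11.5 and 10.6 at 6 h. There were 0.108 and 0.0918 BBC3 counts per PMAIP1 count at 24 h and 0.198 and 0.154 at 6 h, 43.4% lower. BBC3 and PMAIP1 had the lowest and highest fold changes of the 10 members, so the lack of overlap in this ratio follows from their choice. BCL2L1 counts per BAX count were 0.996 and 0.985 against 0.911 and 0.904, 9.14% higher. MCL1 counts per BCL2L1 count were 9.15 and 8.79 at 24 h and 9.93 and 9.63 at 6 h. In contrast, BCL2L11 counts per MCL1 count overlapped, at 0.0205 and 0.0181 against 0.0202 and 0.0221. PMAIP1 and BAX had not overlapped between the times themselves, so the ratios with them are not separate results.

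Of 11 other family genes 8 were tested, and none was called by edgeR or DESeq2. Their median log2 fold change was 0.038, with 6 above 0 and 2 below 0. BCL2A1, an anti-apoptotic gene that NF-kB induces, was the most abundant of them per length. It lay between BAX and PMAIP1 on that scale, at 84.1 CPM per kb (69.7 to 108). It was at 62.1 and 84.6 CPM at 24 h and at 61.2 and 54.4 CPM at 6 h. The 24 h libraries were above the 6 h libraries, replicate 1 by little. The log2 fold change was 0.34 ± 0.15 (edgeR adjusted p = 0.213, DESeq2 adjusted p = 0.163). It was 0.10 without 24 h replicate 2, 0.54 without 24 h replicate 1, where edgeR called it, and -0.14 after the length and GC trend was taken out.

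BCL2L2, which encodes the anti-apoptotic BCL-W, had a log2 fold change of 0.018, BAD, a BH3-only protein silenced by AKT phosphorylation, one of 0.057, and the effector-like BOK one of -0.14. BCL2L12 was at 0.0066 and BCL2L13, a mitophagy receptor, at -0.084. BIK, with 13 and 13 counts at 24 h and 5 and 12 at 6 h, and BCL2L15, with 49 and 45 against 30 and 44, were too low to resolve a difference (log2 fold changes of 0.65 ± 0.50 and 0.39 ± 0.27). BCL2L10 and BCL2L14 had at most 1 count in a library and HRK had none, so they were not tested.

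The genes around the family were taken from 6 lists, and those named below are among the 24 with the smallest p-values in their lists. They were thus chosen for a difference in these libraries, and their values are a description. The sizes of their fold changes depended on which library was left out, as for USP9X (-0.57 to -0.20) and DYNLL1 (0.21 to 0.66) in log2. In the list of caspases and the apoptosome, which act after the membrane opens, 11 of 11 genes were tested and none was called by either tool. The log2 fold changes were above 0 in 5 and below 0 in 6, with a median of -0.041. CYCS, which encodes the cytochrome c that leaves mitochondria, was at 156 and 198 CPM at 24 h and at 133 and 142 CPM at 6 h (0.36 ± 0.13, SE). AIFM1, a flavoprotein of the intermembrane space, was at -0.28 ± 0.13, and the caspase gene CASP6 was at 0.26 ± 0.12, or 0.013 with the length and GC trend removed.

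Among the inhibitors of apoptosis 5 of 6 genes were tested and none was called, with 2 above 0, 3 below 0 and a median log2 fold change of -0.014. BIRC2, the ubiquitin ligase cIAP1, had a value of 0.34 ± 0.13, or 0.13 with the length and GC trend removed. BIRC5, the mitotic protein survivin, had one of 0.33 ± 0.14, which ran from 0.13 to 0.49 in the fits without 1 library. BIRC6 was at -0.23 ± 0.11 and XIAP, which binds active caspases, at -0.066 ± 0.094, or -0.11 without that trend.

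In the death receptor arm upstream of BID 10 of 10 genes were tested and none was called, with 4 above 0, 6 below 0 and a median log2 fold change of -0.073. FAS, a death receptor, was at 132 and 173 CPM at 24 h and at 111 and 116 CPM at 6 h. The 24 h libraries were above the 6 h libraries but far apart from each other, and the log2 fold change of 0.43 ± 0.14 had an adjusted p of 0.0548 by DESeq2. It was 0.23 after the length and GC trend was taken out, and it ran from 0.22 to 0.60 in the fits without 1 library. The receptor genes TNFRSF1A and TNFRSF10B were at -0.20 ± 0.12 and -0.19 ± 0.11 and the kinase gene RIPK1 at -0.11 ± 0.093. For TNFRSF10B and RIPK1 the values were -0.11 and -0.038 without that trend.

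The list of MCL1 turnover held ubiquitin ligases, a deubiquitinase and kinases that set the stability of the protein. Of its 7 genes none was called, 2 were above 0 and 5 below 0, and the median log2 fold change was -0.29, with 5 genes at an unadjusted edgeR p under 0.05, as were 24.4% of all genes. USP9X, which removes ubiquitin from MCL1, was at -0.39 ± 0.14 and HUWE1, a ligase for it, at -0.36 ± 0.15, or -0.16 with the length and GC trend removed. GSK3A was at -0.29 ± 0.11. MARCH5, a ligase of the outer mitochondrial membrane, was at 0.30 ± 0.099, or 0.14 with the length and GC trend removed.

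Partners of the family at the mitochondrion and the cytoskeleton were the only list with calls. DESeq2 called 2 of 6 higher at 24 h, against 5.59% of the genes to which it gave an adjusted p, and edgeR called 0. VDAC3, a channel of the outer membrane, was at 143 and 188 CPM at 24 h and at 112 and 127 CPM at 6 h (0.48 ± 0.14, DESeq2 adjusted p = 0.0380, edgeR adjusted p = 0.173). DYNLL1, a dynein light chain that holds BIM, was at 299 and 410 CPM against 242 and 273 CPM (0.46 ± 0.16, DESeq2 adjusted p = 0.0492, edgeR adjusted p = 0.174). In both genes 24 h replicate 2 was the highest library by far. The log2 fold changes of VDAC3 and DYNLL1 by DESeq2 moved with the library left out. They were 0.64 and 0.66 without 24 h replicate 1, and 0.26 and 0.20 without 24 h replicate 2. They were 0.39 and 0.37 without 6 h replicate 1, and 0.56 and 0.54 without 6 h replicate 2. Removal of the length and GC trend gave log2 fold changes by edgeR of 0.21 and 0.078. DYNLL2, the light chain that holds BMF, lay on the other side at -0.41 ± 0.11 (DESeq2 adjusted p = 0.0516), or -0.27 by edgeR without that trend. MTCH2, a mitochondrial receptor for BID, was at 0.25 ± 0.10, or 0.067 with that trend removed.

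Of the transcription factors of BH3-only genes 8 of 9 were tested and none was called, with 2 above 0, 6 below 0 and a median log2 fold change of -0.31. FOXO3, a driver of BCL2L11 and BBC3, was at 30.8 and 25.1 CPM at 24 h and at 45.3 and 33.0 CPM at 6 h (-0.49 ± 0.17). FOXO4 was at 7.21 and 5.46 CPM against 10.0 and 8.83 CPM (-0.57 ± 0.18) and FOXO1 had a log2 fold change of -0.39 ± 0.15. In these 3 genes both 24 h libraries were below both 6 h libraries, as in 31.5% of all genes, and the log2 fold changes ran from -0.44 to -0.29 with the length and GC trend removed.

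**Figure D4:**
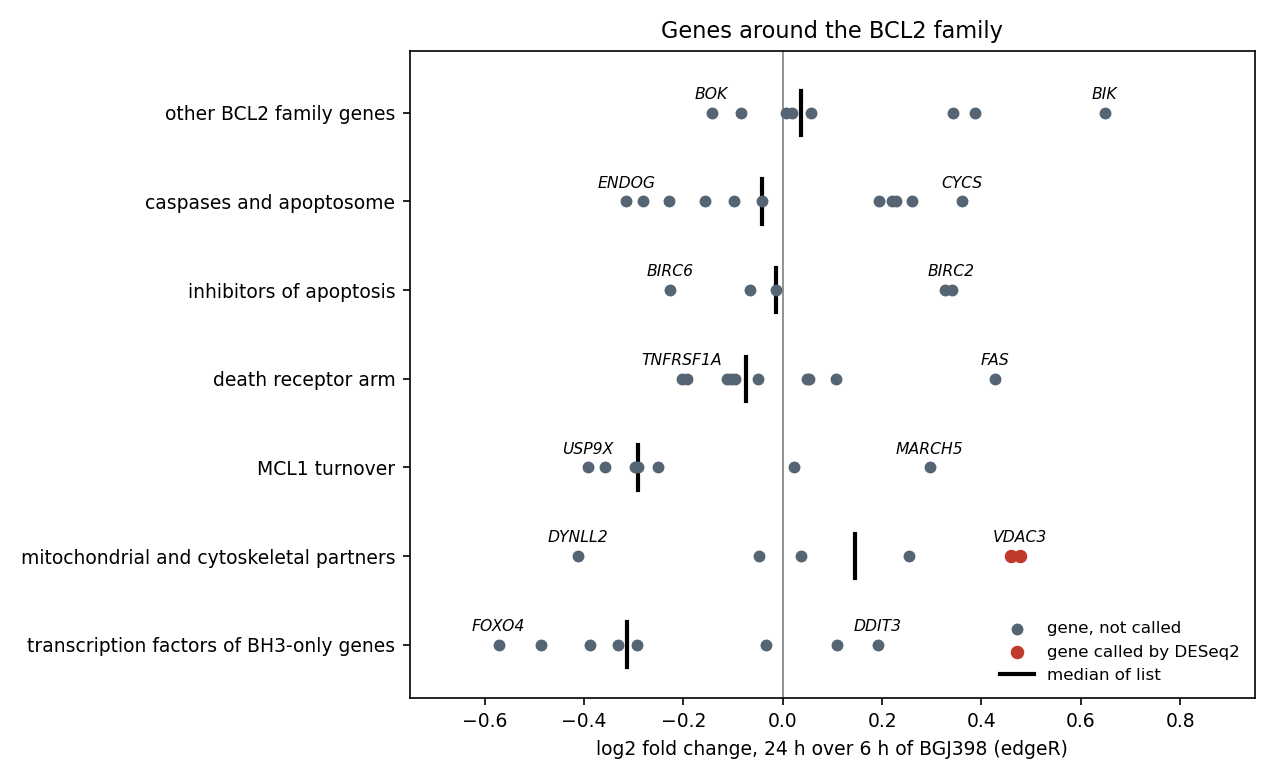
Log2 fold change of 24 h over 6 h by edgeR for each other tested gene of the family and for those of the lists around it, with genes called by DESeq2 in red and a black bar for the median of each list. The only red points are VDAC3 (0.48) and DYNLL1 (0.46), and the lowest medians are those of the transcription factors (-0.31) and of MCL1 turnover (-0.29).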

How the data were processed

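Expression was measured by RNA-seq in 4 libraries. The authors deposited whole-number read counts per gene with hg19 coordinates, without normalization. The submitters' processing notes name STAR 2.3, hg19 and DESeq2. The labels describe single-end reads, whereas the study's methods give paired-end sequencing and a newer STAR. Read counter, annotation and strand setting: not given in the sources used here. Therefore genes that overlap in current annotation (BCL2L1, MCL1, BCL2L11, BMF, BBC3 and BAK1 with antisense or micro RNA genes or neighbours) may share reads. Of 29 symbols turned into dates, 28 were restored from the Ensembl ID, among them MARCH5.

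Counts were tested with edgeR 4.0.16 in R 4.3.3 (quasi-likelihood F test, TMM factors, filterByExpr, all 4 libraries, no covariate), with Benjamini-Hochberg adjustment over 12549 genes and a threshold of 0.05. Each fold change is 24 h relative to 6 h, in log2. DESeq2 1.42.0 was the alternative tool. Alternatives changed the size factors, the filter, the tool, the replicate block and the genes in the total, left out each library, and removed a smooth trend on transcript length and GC. These came from canonical GENCODE v44 transcripts matched by Ensembl ID, for 12390 tested genes (98.8%). Chosen after seeing the data were the block together with that removal, the ratios without PMAIP1 or MCL1, and DESeq2 without each library. The fits were tested on simulated data, with their genes drawn independently.

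Named genes were all members, all other listed family genes and the up to 4 genes with the smallest edgeR p in each list. Some genes that this rule takes are not reported here by name. Members and lists were chosen with earlier results of these data known. Replicates were distinct libraries (chi-square over its degrees of freedom was 32.7 for the 24 h pair and 16.5 for the 6 h pair). No source says that they came from separate cultures, so the p-values reflect the spread among these 4 libraries only, and that spread may be technical.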

Additional observations from a re-analysis of the deposited data

How the results depend on the processing

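By edgeR 0 genes were called and 3061 had an unadjusted p under 0.05. Calls stayed at 0 after each of 5 changes: size factors of DESeq2, no filter, a stricter filter (mean CPM of 10 or more), no mitochondrial-encoded and ribosomal protein genes, and no length and GC trend. DESeq2 called 610 genes (414 higher, 196 lower) of the 7410 to which it gave an adjusted p. The study's cutoffs were an unadjusted p under 0.01 and a log2 change of at least 0.5 in size. Applied here in both directions to the 12549 genes of the main test, they gave 355 (268 higher, 87 lower). Without 1 library edgeR called 1 to 3126 genes, 3126 without 24 h replicate 1 and 887 without 6 h replicate 2, where the single library of a time is assumed to vary as the other pair does. The replicate block gave 4565 calls (2363 higher, 2202 lower), and 3101 (1282 higher, 1819 lower) with the length and GC trend removed as well. Among the 10 members the block added 2, BBC3 (edgeR adjusted p = 0.00496) and PMAIP1 (edgeR adjusted p = 0.00255), against 36.4% of all tested genes. With the trend removed as well it added 2, BBC3 (edgeR adjusted p = 0.00315) and BAX (-0.30, edgeR adjusted p = 0.00107), against 24.7%. Both shares of members were below those of all genes. Same-numbered libraries deviated together (r = 0.49 across genes, which are not independent), but a shared number has no stated meaning, so the block is no pairing. Differences between replicates were also correlated with differences between times (r = 0.74 across genes). The fold changes thus ran in part along the same genes as the spread between replicates. The cause of these correlations was not tested.

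Medians without 1 library ran from -0.23 to 0.021 for the BH3-only members, from -0.21 to -0.013 for the anti-apoptotic members (-0.035 with the stricter filter) and from -0.17 to -0.061 for the effectors, which were at -0.18 with the length and GC trend removed, with or without the block. On the log2 scale the ratio of anti-apoptotic to BH3-only counts changed by -0.21, by 0.013 without PMAIP1 and by -0.11 without MCL1. That of BH3-only to effector counts changed by 0.22 and by -0.0069 without PMAIP1, and that of anti-apoptotic to effector counts by 0.0066 and by 0.11 without MCL1. Directions turned as follows. With that trend removed, and then with the block as well, the log2 fold change was -0.051 and -0.051 for PMAIP1, 0.047 and 0.047 for BMF, -0.081 and -0.079 for BID, -0.14 and -0.13 for BCL2A1, -0.068 and -0.074 for BAD and -0.10 and -0.11 for BCL2L12, and for BCL2L13 it was 0.00059 with the trend removed. BID was at -0.0046 without a filter and at -0.0054 by DESeq2. Without 1 library values ran from -0.050 to 0.057 for BCL2L1, -0.27 to 0.021 for BMF, -0.068 to 0.069 for BID, -0.026 to 0.053 for BCL2L2, -0.046 to 0.15 for BAD, -0.37 to 0.047 for BOK, -0.077 to 0.092 for BCL2L12 and -0.21 to 0.022 for BCL2L13. The stricter filter left out BCL2 and BMF, whose depth limits any statement on them.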
